A study of Drosophila melanogaster with 2 samples.

Results

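The genes described here are the nuclear genes of the mitochondrial ribosomal proteins, whose symbols begin with mRpL for the large subunit and mRpS for the small subunit. They were chosen by symbol alone from the protein-coding genes of the Ensembl annotation of Drosophila melanogaster, and the rule uses no measured value. The rule found 73 genes among 13968 protein-coding genes on the nuclear chromosomes. Of these, 47 encode large subunit proteins and 26 small subunit proteins. They will be called mRp genes. The study was chromatin immunoprecipitation sequencing (ChIP-seq) of the transcription factor p53 in whole embryos of mixed sex, aged 0 to 24 h. The flies were of the line p53-MiMIC-GFP, in which an eGFP exon placed in an intron of the endogenous p53 gene makes a p53-eGFP fusion protein. Chromatin sheared to fragments of 200 to 800 bp was precipitated with an antibody to GFP according to one label, while another names p53 as the antibody's target. The 2 biological replicates, numbered 2 and 3, form 1 group, so there is no second condition. Whole embryos mix all cell types. The mRp genes were set against the other 13895 protein-coding genes.

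Mitochondria make some of the core subunits of the respiratory chain on their own ribosomes, which descend from those of bacteria. The ribosomal RNAs of these particles are encoded in mitochondrial DNA, whereas the proteins are encoded in the nucleus, made in the cytosol and imported. Many mRp proteins have homologues in the bacterial ribosome, and others are specific to mitochondria. p53 is a transcription factor of the DNA damage response, and binds a pair of short half-sites with a CATG-like centre.

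Peaks came as a final list of 2290 regions, a pooled list of 26752 regions, and a list of 30000 regions for each replicate. The authors selected the final list by the irreproducible discovery rate (IDR), a method that compares how regions rank in replicates. The pooled and replicate lists mix peaks with weaker background regions. At a q of 0.01 or less there were 3355 pooled regions, 1847 in replicate 2 and 4186 in replicate 3. The 2290 IDR peaks were the strongest pooled regions, so a place in the IDR list amounts to a cut on pooled signal. It does not mean that each replicate alone held the peak at a low q. The signal value of a region is the authors' own measure of its strength, and is used here only within a list. A gene was counted as having a peak when a summit, the highest point of a peak, lay within 1 kb of any of its annotated transcription start sites (TSSs). A gene was called head-to-head when another protein-coding gene on the opposite strand started 0 to 1000 bp upstream, so that both are transcribed away from a shared promoter region. Neighbouring genes share a peak under this rule. For scale, the strongest peak of the list lay near Xrp1, which encodes a bZIP transcription factor, with a signal value of 1970, and the peak at p53 itself had 610 and ranked 24.

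Sequences at the summits of the strongest mRp peaks are shown first, because these 3 windows carry the highest signal among the mRp genes outside one arm whose sequence is not printed here, and the window at p53 stands beside them. Each is 201 bases centred on the IDR summit, in the orientation of the named gene, from the RefSeq copy of the Release 6 genome (dm6). Capitals mark the stretch nearest to a full p53 site, meaning 20 matched positions made of paired half-sites that abut (0 bp apart) or stand 1 bp apart. That stretch had 5 mismatches at mRpS10 (3R:15229417-15229617, plus strand), 5 at mRpS23 (2L:13835348-13835548, minus strand), 5 at mRpL23 (3L:2373494-2373694, minus strand) and 3 at p53 (3R:23053214-23053414, minus strand).
mRpS10: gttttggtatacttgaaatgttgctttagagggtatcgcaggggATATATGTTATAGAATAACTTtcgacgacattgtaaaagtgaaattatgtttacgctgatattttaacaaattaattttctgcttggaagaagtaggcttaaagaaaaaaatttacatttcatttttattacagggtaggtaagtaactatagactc
mRpS23: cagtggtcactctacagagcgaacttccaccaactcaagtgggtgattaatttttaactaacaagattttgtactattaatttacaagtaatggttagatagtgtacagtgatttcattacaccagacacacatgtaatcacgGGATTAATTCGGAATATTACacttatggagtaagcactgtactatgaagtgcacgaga
mRpL23: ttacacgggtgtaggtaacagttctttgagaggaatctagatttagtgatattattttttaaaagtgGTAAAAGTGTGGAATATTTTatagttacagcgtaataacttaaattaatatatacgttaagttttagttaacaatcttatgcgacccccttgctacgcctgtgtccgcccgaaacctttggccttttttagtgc
p53: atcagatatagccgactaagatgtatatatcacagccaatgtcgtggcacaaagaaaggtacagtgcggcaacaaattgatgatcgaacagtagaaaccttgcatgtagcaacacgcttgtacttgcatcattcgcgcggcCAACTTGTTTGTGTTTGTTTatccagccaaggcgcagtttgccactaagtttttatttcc

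None of the 14 mRp summit windows held a full p53 site with at most 3 mismatches, against 106 of 1588 windows (6.68%) at the other IDR peaks near protein-coding TSSs. The best match in the mRp windows had 4 to 7 mismatches with a median of 5, and that in the other windows 0 to 7 with a median of 5. A single exact p53 half-site was found in 0 of 14 mRp windows and in 66 of 1588 other windows (4.16%). With 14 windows, both shares of the other peaks correspond to fewer than 1 window, so a difference was not detectable. These are matches of letters within 100 bp of a summit on either strand, and a window without a match shows nothing about binding.

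An IDR summit lay near 14 of the 73 mRp genes (19.2%, 95% Wilson interval 11.8 to 29.7), against 2150 of the other 13895 protein-coding genes (15.5%, 14.9 to 16.1). The share of the mRp genes was close to that background, and its interval holds it. Among the genes with any pooled region near a TSS the order turned, at 23.7% of mRp genes and 25.4% of other genes. The 14 genes had 14 distinct peaks, so no peak was counted for more than 1 mRp gene. By subunit, 10 of 47 large subunit genes (21.3%, 11.99 to 34.9) and 4 of 26 small subunit genes (15.4%, 6.15 to 33.5) had a peak, and these intervals overlap widely. Intervals cover counting error only, since the files give no read depth for a peak, which is therefore unknown. They also take genes as independent, although neighbouring genes can share a peak, so those of the other genes are too narrow. Genes are not replicates of a condition, so these shares are given without a test.

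A pooled region of any q lay within 1 kb of 59 mRp genes (80.8%), against a background of 60.9% of the other genes. At a pooled q of 0.01 or less the count was 20 mRp genes (27.4%), against 21.2% of the other genes. The pooled signal, taken as 0 for a gene with no region, had a median of 40.5 over the mRp genes with quartiles of 24.99 and 63.3. Over the other genes the median was 28.9 with quartiles of 0 and 53.9. The gap in the share with any pooled region was smaller within each promoter arrangement. Among genes with a head-to-head partner, a pooled region lay near 49 of 58 mRp genes (84.5%) and 4000 of 4994 other genes (80.1%), and among genes without one near 10 of 15 mRp genes (66.7%) and 4467 of 8901 other genes (50.2%).

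**Figure D1:**
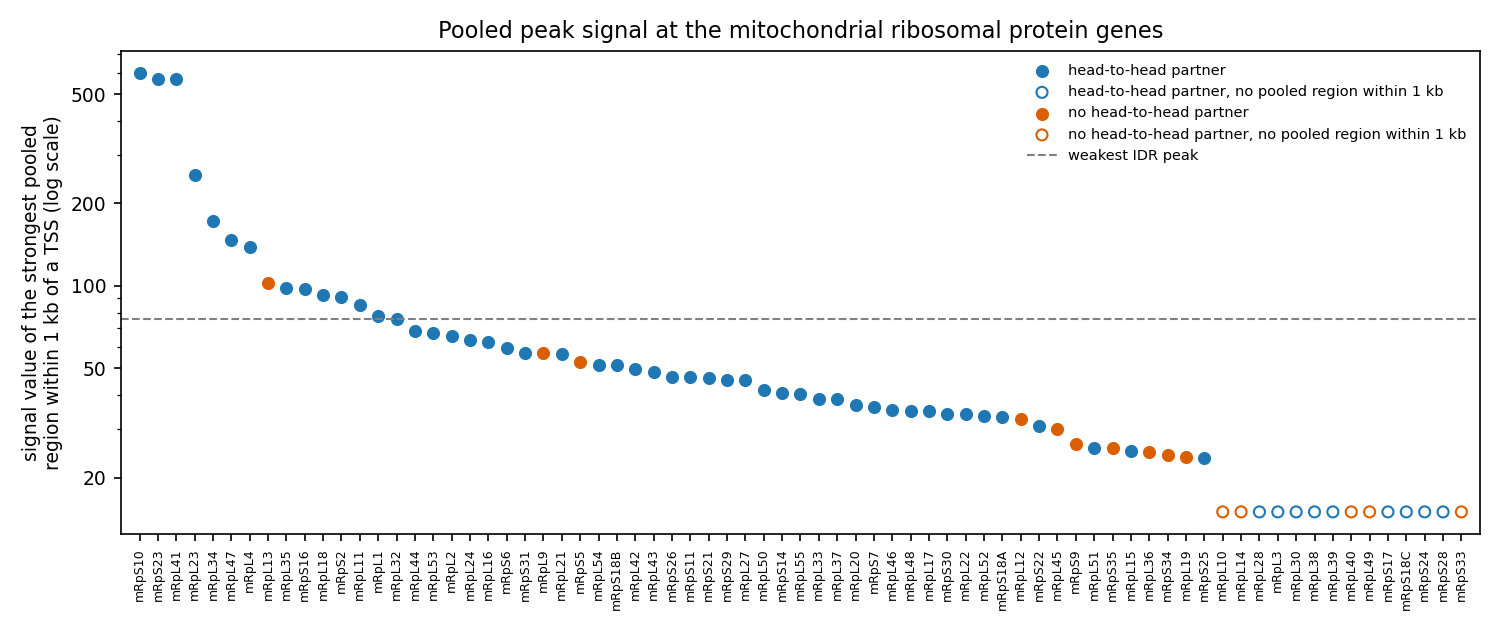
Signal value of the strongest pooled region within 1 kb of a TSS (vertical axis, log scale, no unit given by the authors) for each of the 73 mRp genes, ordered from highest to lowest. Filled points are genes with a pooled region, open points at the bottom are the 14 genes with none and stand at no measured value, and colours separate genes with and without a head-to-head partner; 3 genes stand above 500, and the 14 genes above the dashed line of the weakest IDR peak include 1 without a partner.

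The mRp genes differed from other genes in how their promoters are arranged. A head-to-head partner was found for 58 of 73 mRp genes (79.5%, 95% Wilson interval 68.8 to 87.1), against 4994 of 13895 other genes (35.9%). It was present for 37 of 47 large subunit genes (78.7%) and 21 of 26 small subunit genes (80.8%). With the partner required within 500 bp, the shares were 72.6% of the mRp genes and 27.1% of the other genes. The distance between the paired TSSs had a median of 283 bp for the mRp genes (20 to 793 bp) and 298 bp for the other head-to-head genes (0 to 995 bp). The 58 genes had 60 distinct partners, and no pair joined mRp genes to each other. ATPsynD, a subunit of the mitochondrial ATP synthase next to mRpL55, was the only partner from the list of respiratory chain genes, and 0 partners were cytosolic ribosomal protein genes. This arrangement comes from the annotation and not from the ChIP-seq data.

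Peaks were therefore counted again within each arrangement. Among head-to-head genes, 13 of 58 mRp genes (22.4%, 13.6 to 34.7) had an IDR summit, against 1363 of 4994 other genes (27.3%, 26.1 to 28.5). For all 13, the partner lay within 1 kb of the same summit and is counted among the other genes. Among genes without a partner, 1 of 15 mRp genes (6.67%, 1.19 to 29.8) had one, against 787 of 8901 other genes (8.84%, 8.27 to 9.45). In both classes the mRp share was below that of the other genes, whereas over all genes it was above, and in each case the interval of the mRp share holds the other share. The order within the classes was not stable. Among head-to-head genes it turned without replicate 2 (31.0% of mRp genes, 27.9% of other genes) and with a window of 2000 bp (31.0% and 30.5%). Among genes without a partner it turned without replicate 3 (13.3% and 8.49%) and with partners required within 500 bp (15% and 10.5%). The shares of the other genes, weighted by the mRp genes' mix of promoter kinds, came to 23.5%, or 17.2 of 73 genes, beside the 14 observed. The median pooled signal, with a missing region taken as 0, was 45.8 for head-to-head mRp genes and 46.6 for other head-to-head genes. Without a partner it was 24.9 for mRp genes and 23.3 for other genes.

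mRp genes are also short and mostly have a single start. Their median gene length was 909 bp, against 2178 bp for the other genes, and 67 of 73 (91.8%) had 1 annotated TSS, against 73.4% of the other genes. The sequence searched per gene averaged 2013 bp for mRp genes and 2399 bp for other genes. Among genes with 1 TSS, 12 of 67 mRp genes (17.9%) had an IDR summit, against 11.4% of the other genes. Within that set the shares were 11 of 53 (20.8%) for head-to-head mRp genes against 23.02% for other head-to-head genes, and 1 of 14 (7.14%) for mRp genes without a partner against 5.62% for other genes without one. The class without a partner thus changed sides when the number of TSSs was held at 1, on 1 mRp gene with a peak.

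**Figure D2:**
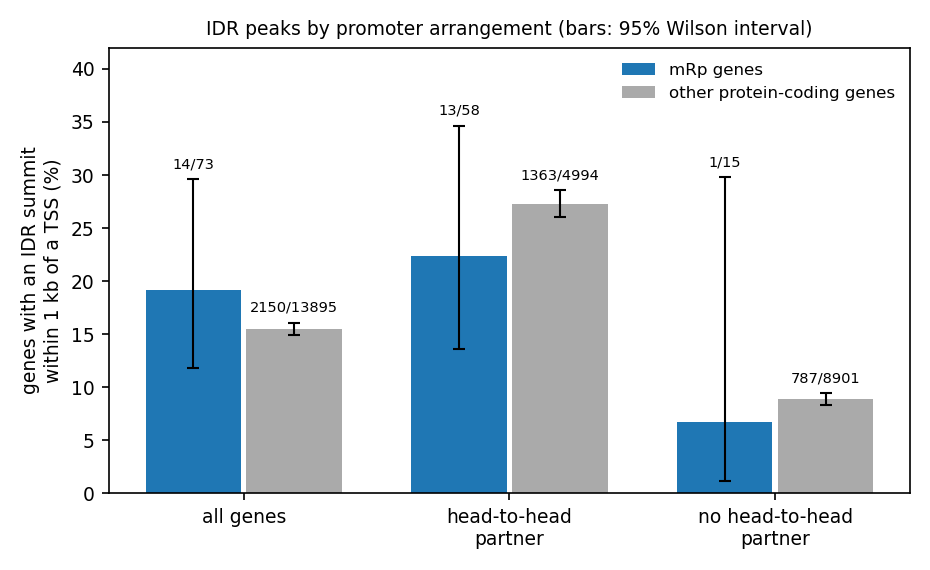
Share of genes whose TSSs have an IDR summit within 1 kb (vertical axis, percent) for mRp genes (left bars) and other protein-coding genes (right bars), over all genes and split by whether a head-to-head partner exists. Error bars are 95% Wilson intervals and the fractions above them are gene counts; the mRp bar is the higher one over all genes (19.2% against 15.5%) and the lower one within head-to-head genes (22.4% against 27.3%) and within genes without a partner (6.67% against 8.84%).

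The 3 strongest peaks stood apart from the other 11. mRpS10 encodes a homologue of the bacterial small subunit protein S10, and its peak at 3R:15229384-15229685 had a pooled signal of 599 and rank 25 of the IDR list. It ranked 24 in replicate 2, with a signal of 247, and 25 in replicate 3, with 350. The summit lay 148 bp upstream of the TSS of mRpS10 and 109 bp from that of Art3, an arginine methyltransferase gene, in the 257 bp between them.

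mRpS23, which encodes a mitochondria-specific small subunit protein, had a peak at 2L:13835323-13835605 with a pooled signal of 568 and rank 28. The signal was 232 in replicate 2, rank 32, and 331 in replicate 3, rank 30. The summit lay 376 bp upstream of mRpS23 and nearer, at 116 bp, to CenG1A, which encodes an Arf GTPase-activating protein. mRpL41, also specific to mitochondria, had a pooled signal of 568 and rank 29, at 2R:15217590-15217919. Replicate 2 gave 226 at rank 34, and replicate 3 gave 339 at rank 28. Its summit lay 126 bp upstream of mRpL41, with CG8079 starting 636 bp away on the other side. In these 3 peaks the summits of the replicates lay within 6 bp of the pooled summit, and both replicates held the peak among their 34 strongest regions.

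mRpL23 encodes the homologue of a bacterial protein at the exit of the ribosomal tunnel. Its peak at 3L:2373497-2373719 had a pooled signal of 253 and rank 171, with 134 in replicate 2 at rank 105 and 118 in replicate 3 at rank 302. Replicate 2 thus ranked it higher, which held for 4 of the 14 peaks, while 10 (71.4%) ranked higher in replicate 3, against 50.5% of the other IDR peaks found in both lists. Among the 1145 strongest IDR peaks, 4 of 7 mRp peaks ranked higher in replicate 3, and below them 6 of 7. The median ranks of the 14 were close, at 945 in replicate 2 and 932.5 in replicate 3. The mRpL23 peak was the only mRp peak with a summit downstream of the member's TSS, 84 bp from it and inside an mRpL23 intron, and 134 bp from CG9004.

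Of the next 3 peaks, mRpL34 had a pooled signal of 172 at rank 409, 154 bp upstream of its TSS and 230 bp from Dg, the dystroglycan gene. mRpL47, the homologue of bacterial L29, had 147 at rank 586, with a summit 50 bp from its own TSS and 49 bp from the TSS shared by CG8176 and the histone demethylase gene Kdm3. mRpL4 had 139 at rank 664, 102 bp upstream of its TSS, and CG4440 began 691 bp away. All 3 held a q of 0.000461 in replicate 2 and 0.000213 in replicate 3, the smallest q of each list.

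The other 7 peaks were in the weaker part of the IDR list, below its 1145 strongest, with pooled signals from 77.8 to 102. mRpL13, a large subunit gene and the one peak-bearing member without a head-to-head partner, had a signal of 102 at rank 1285, 74 bp upstream. It shares its annotated start, on the same strand, with a transcript of CG10602. mRpL35 had 98.2, and its summit lay in the 5′ UTR of Mitofilin, a gene for organising the inner mitochondrial membrane, 8 bp from that gene's TSS.

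mRpS16 had a signal of 97.1 with its summit 32 bp from cg (combgap, a zinc finger protein gene), and mRpS2 had 91.0 with its summit 3 bp from Mon1, a vesicle trafficking gene. The summit for mRpL18, with 93.0, lay in the 5′ UTR of Taz, the gene for tafazzin, which remodels cardiolipin of mitochondria. mRpL11, whose bacterial homologue forms the base of the ribosomal stalk, had 85.4 with a summit in the 5′ UTR of HtrA2, a mitochondrial protease gene. mRpL1, the homologue of the bacterial L1 stalk protein, had 77.8 at rank 2183 and lay 55 bp upstream of its TSS. For all of these except mRpL13 and mRpL1, the summit was nearer to the partner than to the mRp gene.

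The summit was nearer to the mRp gene in 5 of the 13 head-to-head pairs and nearer to the partner in 8. It lay between both TSSs in 10 of 13 pairs (76.9%), against 1009 of 1363 other head-to-head genes with a peak (74%). For the mRp pairs, the TSS of each gene nearest to the summit was used. At mRpL11 this was an HtrA2 TSS 378 bp away. The closest HtrA2 TSS was 126 bp away, and the summit, 276 bp upstream of mRpL11, lay beyond it. The distance to the mRp TSS was 50 to 376 bp with a median of 124 bp, against a median of 134 bp for other genes with a peak. The summits of the mRp peaks thus lay at distances close to those of other genes, and no peak can be given to one gene of a pair from its position. Where a peak was present, the median IDR signal was 120.6 for mRp genes and 111.9 for other genes.

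**Figure D3:**
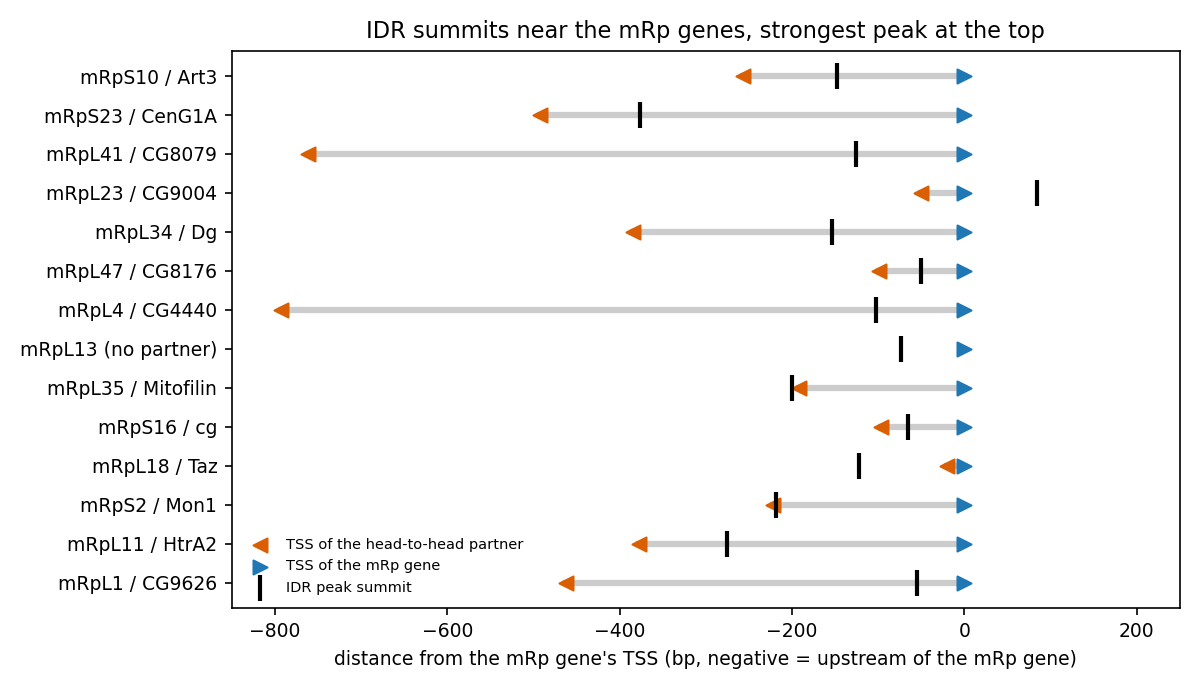
Position of each IDR summit (black bar) relative to the TSS of the mRp gene at 0 (right-pointing triangle) and the TSS of its head-to-head partner (left-pointing triangle), in bp, with peaks ordered by signal from top to bottom. Where a gene has several TSSs, the one nearest to the summit is shown. Of the 14 summits, 13 lie upstream of the mRp gene, and mRpL23 alone lies downstream.

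The replicates marked the mRp genes to different extents. A region with a q of 0.01 or less lay near 10 mRp genes (13.7%) in replicate 2, against 12.1% of the other genes, and near 26 (35.6%) in replicate 3, against 25.5%. Both replicates had one for 10 mRp genes (13.7%), against 11.4% of the other genes, without the regions having to be the same. By subunit, both replicates had one for 8 of 47 large subunit genes and 2 of 26 small subunit genes, mRpS10 and mRpS23. Among head-to-head genes, replicate 3 had one for 25 of 58 mRp genes (43.1%) and 43.2% of other genes, and replicate 2 for 9 of 58 (15.5%) and 21.4%. Among genes without a partner, replicate 3 had one for 1 of 15 mRp genes (6.67%) and 15.6% of other genes. In replicate 2 these shares were 6.67%, again 1 of 15, and 6.85%. The surplus of the mRp genes in replicate 3 was thus not present in either class.

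All 14 IDR peaks of the mRp genes had a q of 0.000213 in replicate 3, and 9 of 14 (64.3%) had a q of 0.01 or less in replicate 2. Of the other 2276 IDR peaks, 98.9% had a q of 0.01 or less in replicate 3 and 73% in replicate 2, so the gap between the replicates was a feature of the whole list. The remaining 5 had replicate 2 q-values of 0.013 for mRpL18, 0.041 for mRpS2, 0.0532 for mRpS16, 0.0933 for mRpL11 and 0.178 for mRpL1. Below the 1145 strongest peaks, replicate 2 reached that q at 2 of 7 mRp peaks and at 580 of 1138 other peaks (51%). mRpL1 ranked 4358 in replicate 2, with a signal of 24.0, and 1753 in replicate 3, with 54.8.

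**Figure D4:**
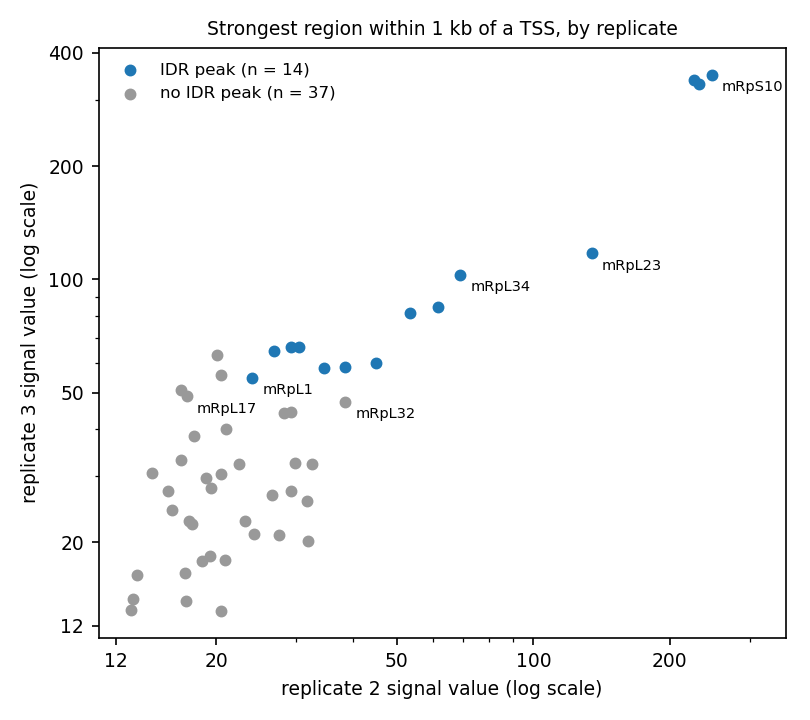
Signal value of the strongest region within 1 kb of a TSS in replicate 2 (horizontal axis, log scale) and in replicate 3 (vertical axis, log scale), which may be different regions, for the 51 mRp genes with a region in both lists. The 3 genes at the upper right are mRpS10, mRpS23 and mRpL41, while mRpL53 (63.1) and mRpL2 (55.6) have no IDR peak but exceed mRpL1 (54.8) in replicate 3, and mRpL32 is the gene without an IDR peak that is highest in replicate 2.

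mRpL32, a large subunit gene, lay just outside the IDR list, with a pooled signal of 75.6 and rank 2302, while the weakest IDR peak of the mRp genes, at mRpL1, had 77.8. Its partner is qless, which starts 264 bp upstream on the other strand, and the pooled summit lay 104 bp upstream of mRpL32. Over this pooled region, replicate 3 had a signal of 47.4 with a q of 0.000213, and replicate 2 a signal of 29.3 with a q of 0.0505. mRpL32 was the only mRp gene with a q of 0.01 or less near a TSS in both replicates and no IDR peak, but its strongest replicate 2 region (38.4, q of 0.00496) was a different one, with its summit 775 bp downstream of the TSS and 879 bp from the pooled summit. The replicates thus did not both call the pooled region at that q. Including mRpL32, 45 mRp genes had a pooled region but no IDR peak, with signals from 23.7 to 75.6 and a median of 40.5, and 6 of these had a pooled q of 0.01 or less. Counted over all 73 mRp genes, 59 had a pooled region and 20 had one at that q. Over the 13895 other genes these counts were 8467 and 2946, with an IDR summit near 2150. The remaining 14 mRp genes had no pooled region, as had 5428 of the other genes. Of these 14, 8 had a region in a replicate list and 6 had none in any list. No such count over the other genes is given for the 6. They include mRpL28, mRpL30 and mRpL40, and 4 of the 6 have a head-to-head partner, beside 79.5% of all mRp genes.

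Split by chromosome arm, the counts of mRp genes with a peak were small. An IDR summit lay near 4 of 12 mRp genes on 2L, 4 of 12 on 2R, 5 of 21 on 3R, 1 of 17 on 3L and 0 of 11 on X. The mRp shares were 33.3% on 2L, 33.3% on 2R and 23.8% on 3R, against 15.2%, 15.4% and 15.9% of the other genes on those arms. On X, the 0 of 11 allows a share of up to 25.9% (upper bound of the 95% Wilson interval), which holds the 16.2% of the other X-linked genes. On 3L the mRp share was 5.88%, with an upper bound of 27.0%, which holds the 14.9% of the other genes. Replicate 3 had a region with a q of 0.01 or less near 2 of the 11 mRp genes on X (18.2%), against 25.5% of the other X-linked genes. Differences between arms were not tested, and the counts are too small to read one from them.

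Short sequence words known from fly promoters were counted on both strands in the summit windows and in each gene's promoter, from 250 bases before to 50 after its most upstream TSS. The word of the DNA replication-related element (DRE, TATCGATA), which is bound by the factor Dref at many housekeeping promoters, was in 15 of 73 mRp promoters (20.5%), against 1290 of 13872 others (9.3%). Among head-to-head genes the shares were 12 of 58 mRp promoters (20.7%) and 15.7% of the others. The DRE was in 0 of the 14 summit windows of mRp genes, against 143 of 1588 other windows (9.01%). With 14 windows, a difference from this share was not detectable. Windows of 200 bp on each side held the DRE at 2 mRp peaks. No share of the other peaks is given at that width, so this count has no background. An IDR summit lay near 2 of the 15 mRp genes with a DRE promoter (13.3%), mRpL4 and mRpS23, and near 12 of the 58 without (20.7%). For the other genes these shares were 25.7% with a DRE and 14.4% without, so the order was the other way round in the mRp genes, on 2 genes.

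The shorter word CGATA, which lies inside the DRE and is also the core of the BEAF-32 insulator word, was in 7 of 14 mRp summit windows (50%), against 40.7% of the other windows, and in 43 of 73 mRp promoters (58.9%), against 47.3%. Among head-to-head genes the promoter shares turned, at 56.9% of mRp genes and 59.3% of other genes. Motif 1 (GGTCACAC) was in 1 of 14 mRp windows (7.14%), at mRpS16, against 6.49% of the other windows, and in 8 of 73 promoters (11%), against 7.68%, while among head-to-head genes it was in 12.1% of mRp promoters and 13.2% of the others. The GAGA type word (GAGAG) was in 2 of 14 windows (14.3%), against 24.2%, and in 12 of 73 promoters (16.4%), against 29.8%, or 17.2% against 23.5% among head-to-head genes. The E-box (CACGTG), the NRF-1 type word (GCGCATGC) and the ETS type word (CCGGAAG) were each in 0 of 14 mRp windows, against 3.46%, 1.07% and 1.07% of the other windows. In promoters they were in 5, 1 and 0 of 73 mRp genes (6.85%, 1.37% and 0%), against 4.19%, 1.05% and 1.1%. A match is a description of the letters, and binding of these factors was not measured.

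The mRpL47 window (3R:9515858-9516058, minus strand, 201 bases around the IDR summit) is shown because it held 3 copies of CGATA, more than any other of the 14 mRp windows, with capitals marking CGATA on either strand. The mRpL32 promoter (3R:31252622-31252921, plus strand, 300 bases) is shown because its DRE, in capitals, lay 80.5 bp from the pooled summit just outside the IDR list. It was not the nearest case, since the DRE of mRpL16 lay 44.5 bp from a weaker pooled summit (signal 62.6).
mRpL47: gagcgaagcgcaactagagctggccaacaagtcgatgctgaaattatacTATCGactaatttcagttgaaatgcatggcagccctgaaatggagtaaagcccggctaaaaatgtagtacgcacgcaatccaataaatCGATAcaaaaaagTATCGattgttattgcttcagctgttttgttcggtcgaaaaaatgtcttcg
mRpL32: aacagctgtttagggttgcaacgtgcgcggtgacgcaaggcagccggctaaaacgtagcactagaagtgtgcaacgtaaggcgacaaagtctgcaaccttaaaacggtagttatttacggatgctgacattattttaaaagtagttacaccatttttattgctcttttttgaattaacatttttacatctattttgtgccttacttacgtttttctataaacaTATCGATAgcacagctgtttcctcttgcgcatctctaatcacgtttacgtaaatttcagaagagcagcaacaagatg

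In mRpL4 the DRE lay 124.5 bp from the IDR summit, centred 22.5 bp downstream of the TSS, and in mRpS23 a pair of copies lay 170.5 and 370.5 bp from it. In the mRp genes that had both a DRE and an IDR peak, the word was thus outside the summit window.

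Other genes of mitochondrial gene expression and mitochondrial DNA replication were counted from a fixed list that the symbol rule does not reach. Its 33 entries gave 27 distinct genes, and an IDR summit lay near 5 of these genes (18.5%, 8.18 to 36.7), against the background of 15.5%. GatC and PolG2 share an annotated start but are counted as separate genes, and neither had an IDR summit. mtSSB, which encodes the mitochondrial single-stranded DNA binding protein, had a signal of 156 at rank 513. GatA, a subunit of the amidotransferase that completes mitochondrial glutaminyl-tRNA, had 143 at rank 618. mRF1, a mitochondrial translation release factor, had 92.8, PolrMT, the mitochondrial RNA polymerase, had 83.6, and tko, which encodes the small subunit protein S12, had 78.5. At mtSSB and GatA, the strongest region near a TSS had a q of 0.01 or less in both replicates. In replicate 2 that region had a q of 0.0147 at PolrMT, 0.188 at mRF1 and 0.692 at tko. In replicate 3 the q was 0.000627 at PolrMT and 0.000213 at mRF1 and tko. bonsai, which encodes the small subunit protein S15, had a pooled region of 33.9 and no IDR peak.

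Beside related gene sets, the mRp share was far below that of the cytosolic ribosomal protein genes and close to that of the nuclear respiratory chain genes. An IDR summit lay near 14 of 73 mRp genes (19.2%), 63 of 92 cytosolic ribosomal protein genes (68.5%, 58.4 to 77.1) and 16 of 84 respiratory chain genes (19.0%, 12.1 to 28.7). The Wilson interval of the mRp genes ends at 29.7, below the lower bound for the cytosolic set. The median pooled signal with missing regions as 0 was 40.5, 112 and 38.3 in the same order. The head-to-head arrangement was more common in the mRp genes (79.5%) than in the cytosolic ribosomal protein genes (59.8%) and the respiratory chain genes (51.2%). Among head-to-head genes alone, peaks lay near 22.4% of mRp genes, 76.4% of cytosolic ribosomal protein genes and 30.2% of respiratory chain genes.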

How the data were processed

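Peak lists from ChIP-seq of 2 biological replicates (1 group) were analysed in dm6. Per the deposited provenance lists, the authors made a list per replicate, a pooled list and a list selected by IDR, and used 1 control library for both replicates. That library was not analysed here. The deposited signal value per region is the authors' peak strength, of unstated scale, and stands beside a deposited −log10 q-value, converted here to q. Their aligner, peak caller and IDR cutoff were not given in the sources used here. Lists in dm3 were left out, because TSSs were taken in dm6.

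Summits were joined to TSSs of Ensembl release 115 and sequences to the Release 6 genome, with Python 3.11.15, pandas 2.3.3 and scipy 1.17.1. Every region lay within the reference lengths. The depth in reads behind a region is unknown, so precision is given as 95% Wilson intervals on gene shares, which cover counting error only. No test over samples exists with 1 group, so shares were set beside those of all other protein-coding genes. The counting was checked on simulated data.

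The symbol rule uses no measured value, but these members, and the gene lists and words, were taken up for description with earlier results of these data known. The text names every mRp gene with an IDR summit and its partner, mRp genes with a q of 0.01 or less in both replicates, up to 3 mRp genes with no region, members of the fixed list with an IDR summit, and p53 and Xrp1. bonsai, ATPsynD, mRpL55 and the genes that enter or leave under an alternative were named after their values were seen. Alternatives changed the window, the TSS rule, the list, the partner rule and the word window.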

Additional observations from a re-analysis of the deposited data

How the results depend on the processing

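The count of mRp genes with an IDR summit, and of their distinct peaks, was 14, and ranged from 14 to 19 when a replicate was left out by taking as many of the other's strongest regions as the IDR list holds. Leaving out a replicate gave 19.2% to 26.0% of all mRp genes, 20.7% to 31.0% of those head-to-head and 6.67% to 13.3% of those without a partner, and for the other genes 14.3% to 15.9%, 24.7% to 27.9% and 8.49% to 9.15%. Without replicate 3, 10 of the 14 genes kept a peak, mRpL32, mRpS26, mRpS5 and mRpS6 entered, and mRpL1, mRpL11, mRpS16 and mRpS2 dropped out. Without replicate 2, all 14 kept a peak and mRpL17, mRpL2, mRpL44, mRpL53 and mRpS11 entered. Of 83 alternative values for the mRp genes, 75 stayed within their error or within 1.5 times the count. These bounds are wide. For genes without a partner, 13.3% and 15% both counted as within the error of 6.67%. The tally therefore does not show that the order of mRp and other genes was stable. The 1145 strongest IDR peaks alone gave 7 genes and 7 peaks, or 9.59% of all mRp genes, 12.1% of those head-to-head, 0% of those without a partner and 10.6% of large subunit genes, because the list is shorter. The DRE count at mRp summits was 0, was 2 with 200 bp on each side, and ranged from 0 to 1 without a replicate. For these alternatives no count of the other peaks is given beside them.

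For the other protein-coding genes, the share with a peak over all, head-to-head and partnerless genes was 13.2%, 23.7% and 7.36% with a window of 500 bp, 18.6%, 30.5% and 11.9% with 2000 bp, and 14.2%, 25.7% and 7.77% with the most upstream TSS alone. It was 8.11%, 14.1% and 4.73% with the 1145 strongest peaks and 21.2%, 36.3% and 12.7% with pooled regions at a q of 0.01 or less. The alternatives chosen after seeing the data gave 25.4%, 34.1% and 17.6% among genes with a pooled region, and 11.4%, 23.02% and 5.62% among genes with 1 TSS. A partner within 500 bp gave 28.9% of head-to-head and 10.5% of partnerless other genes, and partners of any gene type 25.3% of head-to-head ones. The share of other genes with a partner was 27.1% within 500 bp, 41.4% with any gene type, 33.1% with 1 start per partner and 33.3% among genes with 1 TSS. The cause of these shifts was not tested.

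No paired analysis was possible because there is only 1 group. The 2 replicates share a control library, and the read depth behind a peak is unknown, so no error can be put on a single signal value.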
